A study of Mus musculus with 12 samples.

Results

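A large share of the transcriptome differed between cultured mouse adipose progenitors that lack all 3 genes of the microRNA miR-26 and wild-type ones. The comparison held 6 of the 12 libraries of the series, 3 from wild-type cells (WT) and 3 from triple-knockout cells (TKO), chosen by their genotype labels. The cells were the stromal vascular fraction (SVF) of white adipose tissue, the mix of progenitors, vessel-wall cells and immune cells left when mature adipocytes are removed. It was taken from C57BL/6 mice aged 6 weeks and grown to confluency without a differentiation cocktail being named. TKO cells were miR-26a-1-/-, miR-26a-2-/- and also miR-26b-/-, and WT cells carried none of these deletions. The other 6 libraries of the series came from M2rtTA;eGFP.miR-26a cells, either untreated (CTL) or given doxycycline for 4 days to induce miR-26a (Dox; 1 mg/ml as the labels write it, high for cell culture, and the unit was not checked), and they share no sample with the knockout comparison. The labels do not say whether the 3 libraries of a group came from separate animals or cultures, so p-values measure the spread between these libraries, which may be technical.

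The deposited tables gave a scaled read signal per gene, of which 1 read was worth 0.0111 to 0.0182 units, and the recovered totals were 54978109 to 61307133 reads in WT and 71455171 to 83461535 in TKO. Every TKO library was deeper than every WT library, and the part of depth in the results was not tested. Of 19262 genes listed, 12649 reached a signal of 1 in at least 3 of the 6 libraries and were tested. Of 25 names of progenitor markers, 24 were found among the genes listed and 23 were tested. Levels of those 24 summed to 8726 to 9111 units in WT and 6844 to 8045 units in TKO. High genes weigh most in this sum, such as Itgb1 at 2140, 2063 and 1943 in WT 1 to 3. Pdgfra, the receptor that marks adipose progenitors, measured 778, 722 and 836 units in WT 1 to 3 and 560.2, 844 and 667 in TKO 1 to 3. Its ranges overlapped, and its RNA was present in every library of both groups. Levels of markers of other cell types separated some TKO libraries from each other. Macrophage markers summed to 369.1 units in TKO 2 against 48.9 to 86.2 in the other 5 libraries. Epithelial markers summed to between 0.596 units in TKO 1, where none of them exceeded 0.203 units, and 101.5 in TKO 3. In bulk RNA, fewer cells of a type and less RNA per cell cannot be told apart.

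MicroRNAs are short RNAs that guide Argonaute proteins to messenger RNAs, chiefly by pairing of the seed, the bases near the microRNA's 5′ end, with sites in 3′ untranslated regions (UTRs). Paired messengers are translated less and decay faster, so loss of a microRNA is known to raise its direct targets modestly. The miR-26 family is encoded within introns of the Ctdsp phosphatase genes and has been studied in adipose tissue as a regulator of how progenitors become adipocytes. The mature strands of the deleted genes are printed here because their common seed defines the sites searched for in the messengers. Bases 2 to 8, the seed, are in capitals; the sequences are RefSeq's for GRCm38.p6. The miR-26a strand is made from Mir26a-1 (chr9:119031811-119031832, plus strand) and Mir26a-2 (chr10:126995543-126995564, plus strand), and the miR-26b strand from Mir26b (chr1:74394324-74394344, plus strand).
miR-26a-5p: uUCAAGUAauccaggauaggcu
miR-26b-5p: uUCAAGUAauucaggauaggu

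Both strands share the seed, and the complete match to it in a messenger reads tacttgaa. This 8mer, a match to bases 2 to 8 followed by an A, was found in the 3′ UTR of 602 tested genes. Sites of 6 of the genes described next, all of which rose in TKO, are shown. Txndc15, Trappc4 and Stradb were put ahead of some larger rises because they were also lower with Dox. Each window holds 26 bases with the 8mer in capitals. All sites lie in the 3′ UTR, read on the gene's strand and written in GRCm38 coordinates. The Fbxl19 sites are at chr7:127768710-127768717 and chr7:127768739-127768746 (plus strand, exon 11, 779 and 808 bases after the stop codon). The Txndc15 site is at chr13:55726083-55726090 (plus strand, exon 5) and the Trappc4 site at chr9:44403914-44403921 (minus strand, exon 5). The Stradb site is at chr1:58994525-58994532 (plus strand, exon 12), the Capn10 site at chr1:92947891-92947898 (plus strand, exon 12) and the Ptx3 site at chr3:66225220-66225227 (plus strand, exon 3).
Fbxl19 site 1: ggctctctacacaaTACTTGAAcatt
Fbxl19 site 2: ctgtactgaagtgtTACTTGAAccgg
Txndc15: ttgttgctttttaaTACTTGAAcata
Trappc4: cagccttgctaataTACTTGAAaatg
Stradb: aaatgacaaatctaTACTTGAAaata
Capn10: taaaacctatttatTACTTGAAatat
Ptx3: gtgttgtgaaaatcTACTTGAAgcca

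The changes were many and mostly modest. A gene was called when its limma test on log2(signal + 1) had a Benjamini-Hochberg adjusted p under 0.05. That rule called 5796 genes, 45.8% of those tested: 2930 (23.2%) were higher in TKO and 2866 (22.7%) lower. The median size of a called change was 0.52 on the log2 scale, and 498 called genes changed by at least 1, 344 of them upward. Groups did not overlap for 7434 genes (58.8%). The split by direction depends on scaling: scaled to library size in place of the deposited scaling, 66.6% of calls were higher against 50.6%, because the median gene moved up by 0.11. All fold changes here are on the log2(signal + 1) scale, TKO mean minus WT mean with its standard error (SE), which understates changes of low genes. Since 45.8% of genes passed, each group of genes is read against these shares. Leaving out 1 library left 3938 to 5723 calls, fewest without WT 2 and next without WT 1 (4253), and the counts of short lists shrank with them. Ranges over these fits are given where a count moved by over 1.5 times.

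Length and base composition moved with the result across all genes. In the fifth of genes with the shortest transcripts 43.1% were higher and 14.1% lower, while in the fifth with the longest 7.24% were higher and 33.0% lower. By GC content, 9.54% were higher in the fifth with the least and 37.1% in the fifth with the most. Spearman's rank correlation of the change over 12635 genes, which share their libraries and are not independent, was -0.32 with transcript length and 0.31 with GC content. Values with a smooth trend in length and GC content removed from each library are therefore given beside the main ones as "trend removed". With the trend removed, 22.4% of genes were higher and 23.4% lower, and 4541 of those calls had been made in the same direction before. The part of RNA quality in this relation was not tested.

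Particular genes with an 8mer rose, although the median of the class was below 0. Fbxl19, an F-box protein of a ubiquitin ligase complex that carries 2 of the sites printed above, measured 16.9, 19.2 and 22.1 units in WT 1 to 3 and 30, 34.1 and 33.2 in TKO 1 to 3. All 3 TKO libraries lay above all 3 WT libraries, and the change was 0.72 ± 0.11 (adjusted p = 0.0025). Txndc15, a thioredoxin-domain protein, measured 30.6, 29.1 and 30.6 in the WT libraries and 66.1, 62.4 and 52.5 in TKO. Its lowest TKO library was well above its highest WT library (change 0.97 ± 0.09, adjusted p = 0.0006). Trappc4, a subunit of the TRAPP complex that tethers vesicles, measured 24, 23.1 and 24.5 in the WT libraries and 47.4, 44.6 and 43.6 in TKO. The libraries of each group lay close together and the groups were apart by 0.89 ± 0.06 (adjusted p = 0.00028). Stradb, a pseudokinase partner of the LKB1 kinase, measured 11.6, 12.2 and 11.8 in the WT libraries and 21.5, 23.7 and 21 in TKO, a change of 0.84 ± 0.07 (adjusted p = 0.00047). Capn10, a calpain protease, measured 6.74, 7.22 and 7.68 in the WT libraries and 17, 15.1 and 16.3 in TKO. Its highest WT library was about 1 unit above the lowest, and the change was 1.06 ± 0.08 (adjusted p = 0.00034). Ptx3, a secreted pattern-recognition protein, measured 130.4, 103 and 81.2 in the WT libraries and 326, 198 and 176 in TKO. The groups did not overlap, but TKO 1 was far above the other TKO libraries, and the change of 1.12 ± 0.26 had an adjusted p of 0.014. In the separately scaled CTL libraries, whose label names no miR-26 deletion, Capn10 measured 15.8, 16.5 and 16.8, near TKO. Ptx3 there, at 200.4, 198.3 and 134.6, lay above every WT library. Txndc15, at 40, 41.7 and 45.7, and Trappc4, at 32.4, 32 and 39, lay between the groups in CTL. Stradb, at 10.9, 13.3 and 11.3, lay near WT. Why some levels in CTL lay nearer TKO was not tested.

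The other 8mer genes with the largest rises were Acad8, an acyl-CoA dehydrogenase of valine breakdown (1.00), Tmem128 (0.91) and Mul1, a mitochondrial ubiquitin ligase (0.89). Next came the kinase gene Pim3 (0.88), Bloc1s2 of the BLOC-1 complex (0.87), Minos1 of the mitochondrial inner membrane organising system (0.86) and the immediate-early gene Ier5 (0.82). For Bloc1s2, a share of 0.433 of the 50-base stretches of the transcript also occurs in other annotated genes, so its level is uncertain. The same share is given as the shared sequence of other genes. Other 8mer genes fell. Zfhx4, a large zinc finger homeobox protein, measured 174, 154 and 134 in the WT libraries and 83.1, 37.4 and 74.2 in TKO, a change of -1.31 ± 0.29. Every TKO library was below every WT library, with TKO 2 lowest. Pom121, a nuclear pore protein, measured 81.8, 99.1 and 85.9 in the WT libraries and 40.9, 39.7 and 47.5 in TKO and changed by -1.04 ± 0.10. Fip1l1, a factor of messenger 3′ end processing, measured 145, 161 and 146 in the WT libraries and 72, 78.9 and 74.9 in TKO and changed by -0.99 ± 0.07. Both moved with little spread within either group. In the separately scaled CTL libraries Fip1l1 measured 74.8, 74.4 and 66.8, near TKO. Pom121, at 51.8, 56.9 and 54.6, and Zfhx4, at 98.1, 89.5 and 97, lay between the groups there. Rere, a nuclear receptor coregulator, fell by 0.98 and Mns1, a meiosis-specific nuclear structural protein, by 0.97. Srcap, a chromatin remodelling ATPase, fell by 1.25, but its shared sequence is 0.904. These examples are the largest among 247 called 8mer genes whose groups did not overlap and whose mean signal reached 5; 96 were higher and 151 lower.

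**Figure D1:**
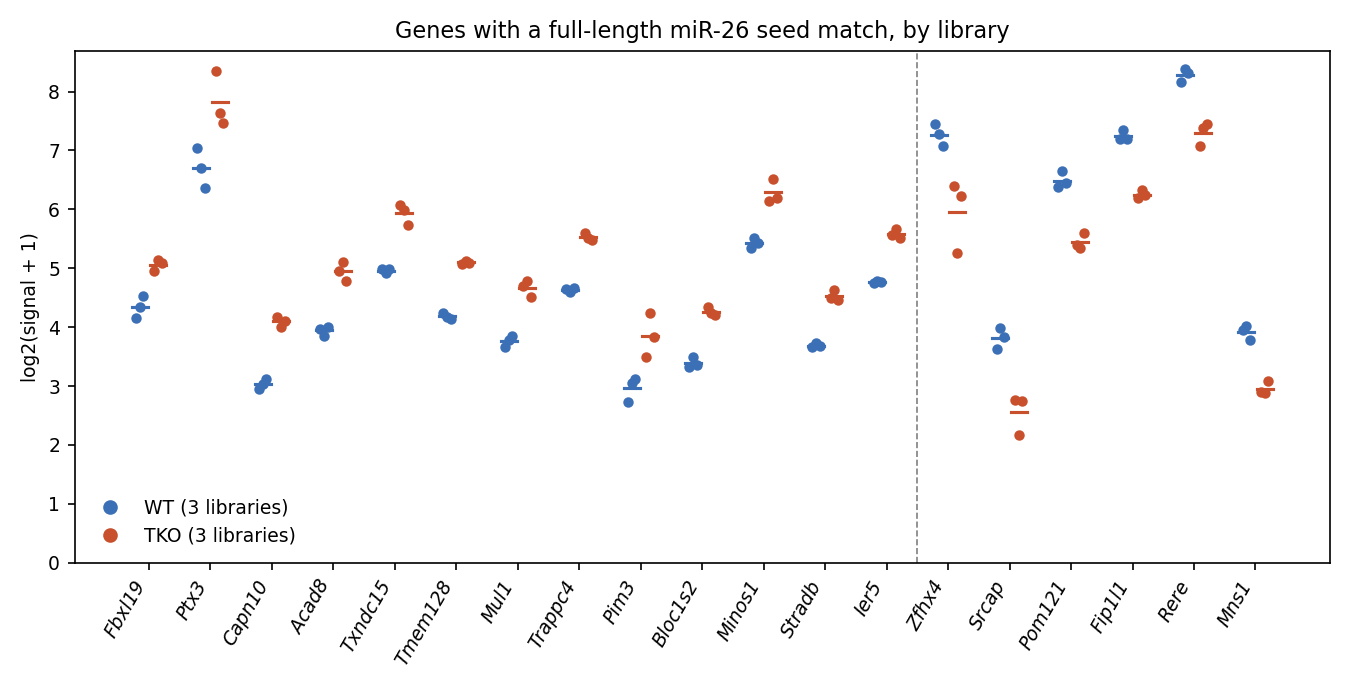
Levels of 19 genes whose 3′ UTR holds an 8-base miR-26 seed match, as log2(signal + 1) on the vertical axis. Each point is 1 library, blue for WT and red for TKO, bars are group means, and the dashed line parts 13 genes that were higher from 6 that were lower. The groups overlap for none of them, which was a condition of choosing every gene but Fbxl19.

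Over all 602 genes with an 8mer, the median change was -0.08, with 101 higher (16.8%) and 159 lower (26.4%). The 7471 genes with no seed match of 6 bases or more had a median of 0.05, with 27.3% higher and 20.9% lower. The weaker site classes lay with the 8mers: -0.12 for 769 genes with a 7mer matching bases 2 to 8 and -0.05 for 1211 genes with a 7mer matching bases 2 to 7 before an A. Genes with 8mers had a median transcript of 5008 bases and 46.1% GC, against 2708 bases and 51.9% GC without a match. With the trend in length and GC removed, the order turned. The median was then 0.08 for 8mers, with 28.4% higher and 17.6% lower, against 0.0 without a match, with 22.8% higher and 25.0% lower. Classes were also compared among genes of similar 3′ UTR length. With 3′ UTRs of at most 717 bases, the trend-removed medians were -0.03 for 43 genes with an 8mer and 0.0 for 3524 genes without, and with 718 to 1871 bases 0.01 for 151 and -0.03 for 2580. With 1872 bases or more, the trend-removed medians were 0.10 for 408 genes with an 8mer and 0.02 for 1367 genes without, with 29.7% and 21.3% higher. As deposited, medians with an 8mer were 0.01, 0.01 and -0.12 from the shortest to the longest range, against 0.16, 0.0 and -0.10 without. The 34 genes with at least 2 8mers had a median of -0.12 as deposited, with 3 higher and 9 lower. Their trend-removed median was 0.14, with 13 higher and 6 lower. The difference of the medians, 8mer minus no match, was -0.135 as deposited and 0.082 with the trend removed, and a single library weighed on it: without TKO 2 it was -0.071. By library, the 8mer genes deviated from the unmatched genes by 0.119, 0.07 and 0.038 in WT 1 to 3 and by -0.023, -0.184 and 0.0 in TKO 1 to 3.

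**Figure D2:**
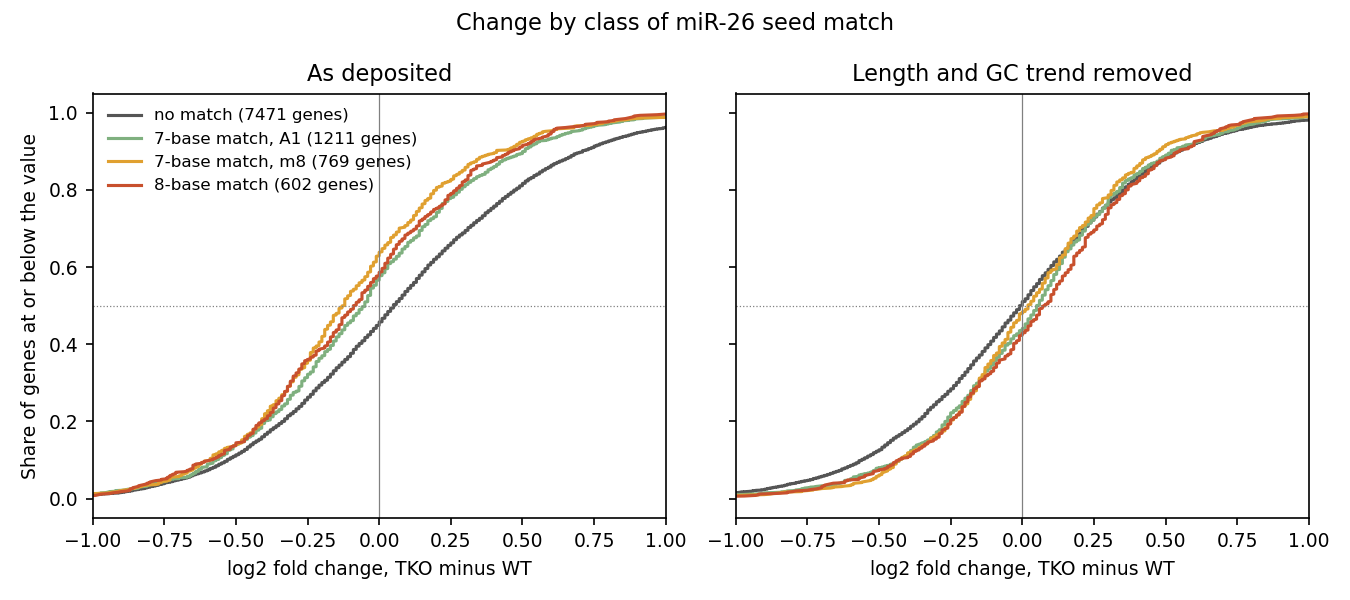
Cumulative share of genes (vertical axis) at or below each log2 fold change, TKO minus WT (horizontal axis), by class of miR-26 seed match in the 3′ UTR. On the left, from the deposited values, all 3 matched classes lie left of the 7471 unmatched genes; on the right, with the length and GC trend removed, the 8-base class lies furthest right, with a median of 0.08 against 0.0.

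The induction of miR-26a in the separate Dox libraries gives a second measure of the same sites. There, with replicates paired, 265 genes were called, 2.10% of those tested: 194 (1.54%) were lower and 71 (0.562%) higher. Unpaired, limma called 0 of 12634 genes with all libraries or without any 1 of them (748 at an unadjusted p under 0.05), edgeR 0 and DESeq2 99. Of the 63 genes with an 8mer that were lower with Dox, 21 (33.3%) were higher in TKO and 12 (19.0%) lower. Of the 530 with an 8mer that Dox left uncalled, 78 (14.7%) were higher in TKO and 147 (27.7%) lower. Those 21 genes made up 20.8% of the 101 8mer genes that rose in TKO. They include Stradb, with a paired Dox change of -0.70 (adjusted p = 0.024), Txndc15 with -0.57 (adjusted p = 0.016), Trappc4 with -0.56 (adjusted p = 0.031) and Nus1, a subunit of the enzyme that makes dolichol, with -0.60 (adjusted p = 0.012). Nus1 rose in TKO by 0.60, and by 0.81 with the trend removed. Fbxl19 changed by -0.36 with Dox and did not pass (adjusted p = 0.079). The other 8mer genes named with the largest rises did not pass with Dox either. Capn10 changed by -0.36 (adjusted p = 0.17) and Ptx3 by -0.48 (adjusted p = 0.11), while Ier5, Minos1 and Pim3 were at 0.22, 0.09 and 0.07. Acsl3, also with an 8mer and lower with Dox (-0.51, adjusted p = 0.022), fell in TKO. Txndc15, Trappc4 and Stradb were picked for display with their Dox calls known.

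Few genes known as reported miR-26 targets rose. Of 25 tested, 3 were higher, 9 lower and 13 did not pass, and under library-size scaling 6 were higher. The 3 were Stradb, Fbxl19 and Nus1. Hmga2, a chromatin protein of growing mesenchymal cells, fell by 1.35; it measured 150.1, 137 and 122 in the WT libraries and 67, 31.4 and 68.5 in TKO. TKO 2 held the lowest level and no TKO library reached the WT range. Zcchc11, which adds uridines to RNA ends, fell by 0.84, the kinase adaptor gene Tab3 by 0.71 (0.44 with the trend removed), and Acsl3, an acyl-CoA synthetase of lipid droplets, by 0.73. The cyclin gene Ccne2 fell by 0.64 and by 0.42 with the trend removed. Ezh2, a histone methyltransferase with an 8mer, measured 43.8, 42.8 and 38.1 in the WT libraries and 28.5, 31.2 and 40.1 in TKO and did not pass (adjusted p = 0.084, or 0.012 without TKO 3). With the trend removed, 6 of the 25 reported targets were higher and 8 lower, against 22.4% and 23.4% of all genes, so the share of rises was then near that of all genes.

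The machinery of microRNA action was counted in the same way. Of 22 genes tested, 9 were lower and 3 higher. With the trend removed 3 were lower and 5 higher, under library-size scaling 4 were lower, and in fits without WT 1, WT 2, WT 3 or TKO 1 only 4 or 5 were. Tnrc6c, a GW182 scaffold that recruits deadenylases, fell by 0.65 and the deadenylase subunit gene Pan3 by 0.58. The nuclear export GTPase gene Ran rose by 0.84. Dicer1 and Tnrc6a, each called lower at -0.41 and -0.41, did not pass with the trend removed (-0.15 and -0.18) under library-size scaling, or without WT 1 or WT 2 (Tnrc6a also without WT 3 or TKO 1). Among Fbxl19's partners and relatives, 6 of 14 rose with the trend removed and 7 under library-size scaling, which called 3823 of all 12649 genes higher. In the main fit 4 rose (28.6%, Fbxl19 among them), near the 23.2% of all genes. Besides Fbxl19 these were the F-box gene Fbxl6 (1.08 ± 0.08), the ring-finger subunit gene Rbx1 (0.75 ± 0.06) and Fbxl15 (1.36), a low gene whose change was 2.22 by edgeR and 0.56 with a pseudocount of 5. Kdm2a, a histone demethylase with a CXXC domain like that of Fbxl19, fell by 0.78.

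The 3 host genes, whose introns hold the deleted microRNAs, moved both ways. Ctdsp2 measured 198, 192 and 228 in the WT libraries and 239, 301 and 268 in TKO and was higher by 0.38, while Ctdspl and Ctdsp1 were lower, at -0.39 and -0.30. The calls are not firm. Ctdsp1 (-0.48 with the trend removed) and Ctdspl did not pass under library-size scaling (-0.18, adjusted p = 0.16, and -0.26, adjusted p = 0.064), and Ctdsp2 did not pass without WT 1, WT 2 or TKO 3 (adjusted p of 0.089, 0.098 and 0.059). Ctdsp1 did not pass without WT 1, WT 3 or TKO 3 either (0.071, 0.082 and 0.056). Libraries of polyadenylated RNA do not measure mature microRNAs, so the loss of the miR-26 strands was not measured here.

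The largest single changes were in short housekeeping genes and in mitochondrially encoded ones. Rpl39, a ribosomal protein of the large subunit, measured 38.6, 35.8 and 45.8 in the WT libraries and 292, 346 and 287 in TKO, a change of 2.92 ± 0.12 (adjusted p = 0.0001). Tspo, the cholesterol-binding translocator of the outer mitochondrial membrane, measured 7.34, 7.98 and 11.2 in the WT libraries and 50.4, 74 and 48.4 in TKO and rose by 2.57 ± 0.21. Atp5e, the epsilon subunit of ATP synthase, measured 8.03, 9.12 and 9.34 in the WT libraries and 59.1, 59.7 and 49.3 in TKO and rose by 2.53 ± 0.10. In each the lowest TKO library stood several-fold above the highest WT library. S100a6, a calcium-binding protein of proliferating fibroblasts, measured 276, 262 and 278 in the WT libraries and 1261, 1358 and 1112 in TKO and rose by 2.18 ± 0.09. The long noncoding RNA AC121965.1 rose by 2.26, the chemokine gene Ccl8 by 2.08 and Chl1, a neural cell adhesion molecule, by 1.96. For Ccl8 and Chl1 the TKO libraries were spread, 24.3, 43.6 and 15 and 22.2, 38.9 and 14 units, with TKO 2 highest in both. Sec61b of the protein translocation channel (2.26), Gstp1, a glutathione transferase (1.97), and the ribosomal genes Rps10 (2.29), Rpl22l1 (2.28) and Rps18 (1.94) also led, but their shared sequence is 0.41 to 0.867.

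Under the same rule, the largest falls were in the mitochondrially encoded genes described with the respiratory chain, and in Srp54b. Among the other large falls, Hcfc1r1, a regulator of the HCFC1 transcriptional cofactor, measured 195, 209.7 and 204 in the WT libraries and 67.9, 65.7 and 58.7 in TKO, a fall of 1.65 ± 0.07. Egr1, an immediate-early transcription factor, measured 180.5, 212 and 199.6 in the WT libraries and 45.2, 89.6 and 56.5 in TKO and fell by 1.67 ± 0.23. Both were chosen among genes without overlap of the groups, and Egr1 varied more in TKO than in WT. Scg2, a secretory granule protein, fell by 1.71, Fabp3, a fatty acid carrier of muscle, by 1.38, Arhgdib, a GTPase regulator of blood cells, by 1.37 and Fam122a, a phosphatase 2A inhibitor, by 1.45. Srp54b itself, a signal recognition particle gene, was lower by 1.91, with a shared sequence of 0.939, so its reads and those of its copies cannot be told apart.

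Ribosomal protein genes rose broadly. Of 82 tested, 62 were higher and 9 lower, with a median change of 0.78, against 23.2% higher over all genes. Trend removed, 55 were higher and 14 lower, with a median of 0.52, and 61 to 63 were higher in the fits without 1 library. In the small subunit, 28 of 33 rose (median 1.05), and in the large subunit, 33 of 48 (median 0.71). Rps21, of the small subunit, measured 44.7, 54 and 58.7 in the WT libraries and 226, 264 and 208 in TKO and Rpl18, of the large, 76.3, 80.6 and 85.9 in the WT libraries and 249, 275 and 264 in TKO. Both groups of libraries were close together for these genes, which rose by 2.13 and 1.69. The untreated CTL libraries, whose label names no miR-26 deletion and whose values were scaled separately, held Rpl18 at 246, 230 and 264, near TKO. Rps21 there, at 135, 143 and 161, lay between the groups. Why some levels in CTL lay nearer TKO than WT was not tested. The subunits did not move as one: Rps6, the target of S6 kinase, measured 544, 549.9 and 524 in the WT libraries and 257, 291 and 278 in TKO and fell by 0.97, with a shared sequence of 0.846, and others that fell include Rps26, Rps28, Rpl13a, Rpl17, Rpl23, Rpl28 and Rpl35. Rpl35 fell by 0.75, and by 1.15 with the trend removed. All 9 genes that fell have shared sequence of 0.3 or more. Among the 25 ribosomal genes with less than 0.3, 20 rose and the lowest change was -0.04 (Rps24, which did not pass), while among the 57 others 42 rose and 9 fell.

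Many ribosomal genes have processed pseudogenes, near copies whose reads may be confused with those of the parent. Of 26 ribosomal copies tested, from 22 parents, 10 were lower and 6 higher, with a median of -0.48. In 8 pairs the parent was called higher and the copy lower. Rpl39 rose by 2.92 while Rpl39-ps fell by 1.09; the copy measured 7.86, 4.33 and 9.19 in the WT libraries and 2.29, 3 and 2.77 in TKO. Rpl9 rose by 1.16 and Rpl9-ps6 fell by 1.51. Rps18 rose by 1.94 and Rps18-ps3 fell by 1.15. The copies are low, so their size depends on the scale: by edgeR Rpl9-ps6 fell by 2.54 and Rps18-ps3 by 2.02, and with a pseudocount of 5 Rpl39-ps, Rpl9-ps6 and Rps18-ps3 fell by 0.64, 0.63 and 0.45. The mean of Rpl39-ps went from 7.13 to 2.69 units while that of Rpl39 went from 40 to 308. The unit counts reads and is not per length. Of the 330 genes with more than a share of 0.5 of their sequence in common with other genes, 36.4% were higher and 28.2% lower.

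Nuclear genes of the respiratory chain rose and the mitochondrial genome's own genes fell. Of 79 nuclear subunit genes, 59 were higher and 3 lower (median 0.70). Trend removed, 48 were higher and 13 lower (median 0.41). Complex I, which takes electrons from NADH, had 24 of 36 higher. Ndufa2 measured 8.42, 7.83 and 9.39 in the WT libraries and 45.5, 45.4 and 40.8 in TKO and rose by 2.23. In the separately scaled CTL libraries it measured 33.8, 36.7 and 44.6, nearer TKO than WT. All 4 tested subunits of complex II, the succinate dehydrogenase, were higher, led by Sdhd (1.18 ± 0.07). Complex III had 6 of 9 higher, led by Uqcr10 (1.55 ± 0.10), and complex IV, the cytochrome c oxidase, 10 of 12, led by Cox5a (1.59 ± 0.09). ATP synthase had 14 of 17 higher, or 10 with the trend removed, when 1 was lower. Uqcrb and Cox7a2l went the other way, and fell by 0.75 and 0.97 (shared sequence of Uqcrb 0.432).

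Proteins encoded in mitochondrial DNA belong to the same complexes, yet of the 10 genes tested 9 were lower and 0 higher by limma (0 also at an unadjusted p under 0.05, by edgeR and by DESeq2). Their median change was -1.56, or -1.54 with the trend removed, and 9 stayed lower in each fit without 1 library. mt-Nd5, of complex I, measured 11252, 11587 and 9870.5 in the WT libraries and 2891, 2385 and 2398 in TKO and fell by 2.09 ± 0.13. mt-Cytb, of complex III, measured 10256, 11227 and 9346 in the WT libraries and 3582, 3094 and 3166 in TKO and fell by 1.65. The highest TKO library was far below the lowest WT library for both. In the separately scaled CTL libraries mt-Nd5 measured 2612, 2376 and 2728 and mt-Cytb 3595, 3197 and 3326.5, near TKO. There mt-Co1, at 5622, 5161.5 and 4946, lay between the groups. mt-Nd1 fell by 1.88, mt-Nd2 by 1.89 and mt-Nd6, the one on the other strand, by 1.43. mt-Co3 measured 3.32, 2.62 and 3.4 in the WT libraries and 3.19, 3.18 and 2.48 in TKO and did not pass (adjusted p = 0.75), and 0.999 of its sequence recurs in other annotated genes. mt-Co1 and mt-Nd4, with shared sequence of 0.511 and 0.622, fell by 1.61 and 1.51. Mitochondrial ribosomal proteins, nuclear genes that serve translation inside the organelle, were higher in 44 of 76 and lower in 9, with the trend removed in 36 and 18. Mrps14 and Mrps15, neighbours in the small subunit's naming, went apart: 1.38 ± 0.07 and -0.95 ± 0.08.

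Most proteasome genes rose. Of 34 tested, 25 were higher and 4 lower (2 without WT 2 or WT 3), and 18 and 4 with the trend removed. Of the 15 core genes, which form the proteolytic barrel, 14 were higher (median 0.49). Of the 19 cap genes, which unfold substrates, 11 were higher and 3 lower (median 0.21). Psmb4 led at 1.44 ± 0.07, and Psmd6 led the cap at 0.89 ± 0.05. Redox and iron-storage genes were higher in 11 of 25 and lower in 2 (1 in each fit without a library other than TKO 1). Besides Gstp1, given with the largest rises, these include 3 peroxiredoxins: Prdx2 rose by 0.94, Prdx4 by 0.82 and Prdx1 by 0.69. Txn1, the thioredoxin that recycles them, rose by 0.94. Gclc, the enzyme that limits glutathione synthesis, fell by 0.38.

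**Figure D3:**
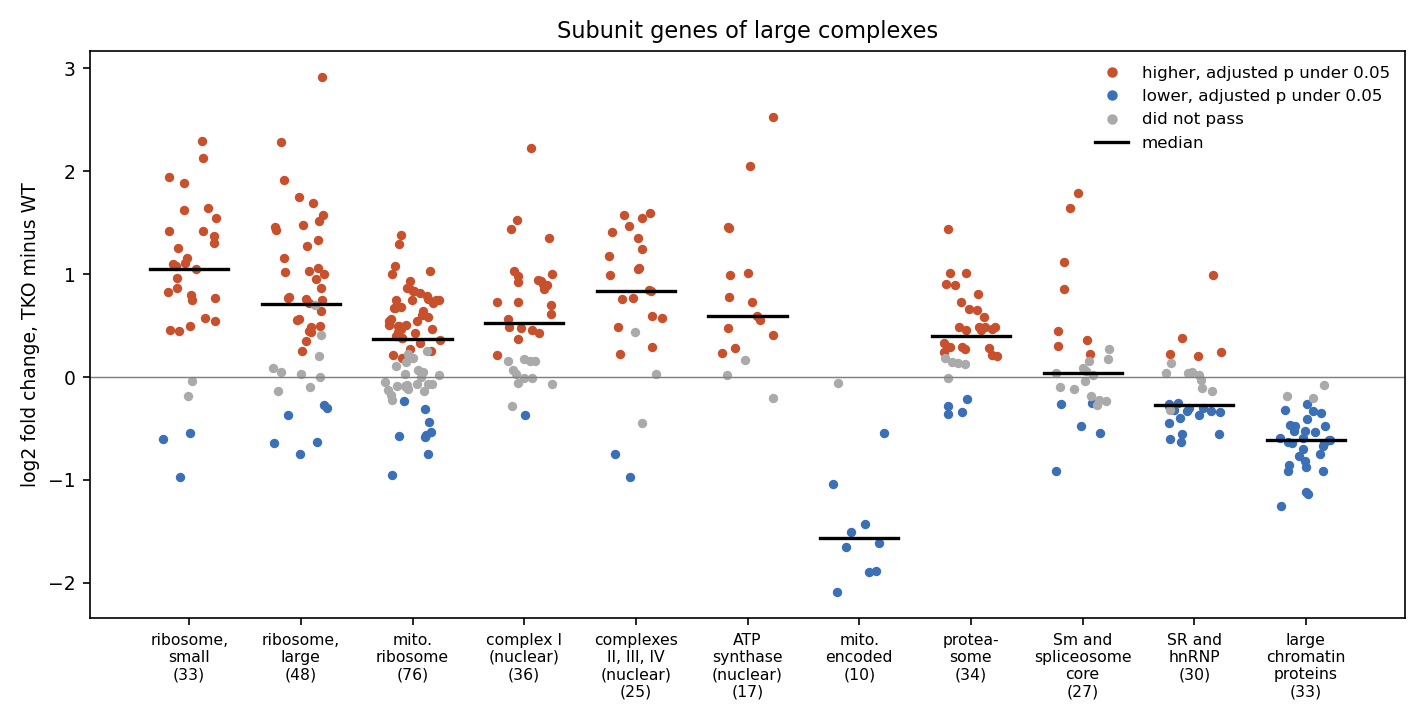
Log2 fold change, TKO minus WT, of each tested gene (points) in 11 groups of complex subunits, with the number of genes in brackets and black bars for medians. Red points were higher, blue lower and grey did not pass at an adjusted p of 0.05; the nuclear subunits of the ribosome and the respiratory chain lie mostly above 0, while 9 of the 10 mitochondrially encoded genes and 30 of the 33 large chromatin genes were lower.

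Large chromatin regulators fell nearly as a whole. Of 33 remodellers and histone methyltransferases tested, 30 were lower (median -0.61), against 22.7% of all genes, and 0 were higher by limma (0 also unadjusted, by edgeR and by DESeq2). Trend removed, 26 were lower (median -0.36), as were 22 to 30 in fits without 1 library. The median transcript of the set is 9037 bases, which places it in the fifth of genes where 33.0% were lower. Kmt2e measured 240.2, 244 and 234 in the WT libraries and 113, 91.6 and 122 in TKO and fell by 1.14 ± 0.11; it is a relative of the MLL histone methyltransferases. Arid1a, a subunit of the SWI/SNF remodeller, measured 148, 166 and 151 in the WT libraries and 79.6, 75.5 and 91.5 in TKO and fell by 0.91 ± 0.09. Neither gene overlapped between groups. In the separately scaled CTL libraries Kmt2e measured 124, 118 and 110, near TKO, and Arid1a 109, 117 and 111, between the groups. Ncor1, a nuclear receptor corepressor, fell by 0.91, the acetyltransferase genes Crebbp by 0.85 and Ep300 by 0.67, and Setd1a, a histone H3 methyltransferase, by 0.87 (shared sequence 0.54).

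Zinc finger genes of the Zfp series were lower in 102 of 308 and higher in 22, and with the trend removed in 94 and 48. Under library-size scaling 74 were lower and 41 higher, and without WT 2 only 12 were higher. Splicing regulators of the SR and hnRNP families were lower in 16 of 30 and higher in 5, against 11 and 5 with the trend removed, 6 and 5 under library-size scaling, and 7 lower and 2 higher without WT 2 (9 lower without WT 1, and 2 or 3 higher without each library but TKO 1). Srsf5 fell by 0.55 and Srsf11 by 0.55, while Srsf3 rose by 0.38 and Hnrnpa0 by 0.99. The Sm proteins form the ring at the core of spliceosomal particles. Of 27 core genes, 8 were higher (29.6%) and 5 lower (18.5%), not far from the shares of all genes. With the trend removed 6 were higher and 11 lower, and without WT 2 only 3 were lower. Snrpe rose by 1.79 ± 0.08 and Snrpg by 1.64 ± 0.09, while Snrpd3 fell by 0.91 ± 0.09. Snrpe measured 14.3, 12.4 and 13.4 in the WT libraries and 46.2, 52.2 and 47.4 in TKO, and Snrpd3 125, 106 and 103 in the WT libraries and 56.8, 61.4 and 58.1 in TKO. Both differences were far larger than the spread within a group. Of 62 translation factors, 18 were higher (29.0%) and 15 lower (24.2%), near the shares of all genes (23.2% and 22.7%). Eif1, which scans for the start codon, rose by 1.42 and Eif6, which keeps the large subunit apart, by 1.27, while Eif5b, which joins the subunits, fell by 1.19 and Eif3a, the largest scaffold of its complex, by 0.91. Among 19 histone genes 6 were higher (3 when a mean signal of 5 was required), led by the linker histone gene Hist1h1c (1.22).

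**Figure D4:**
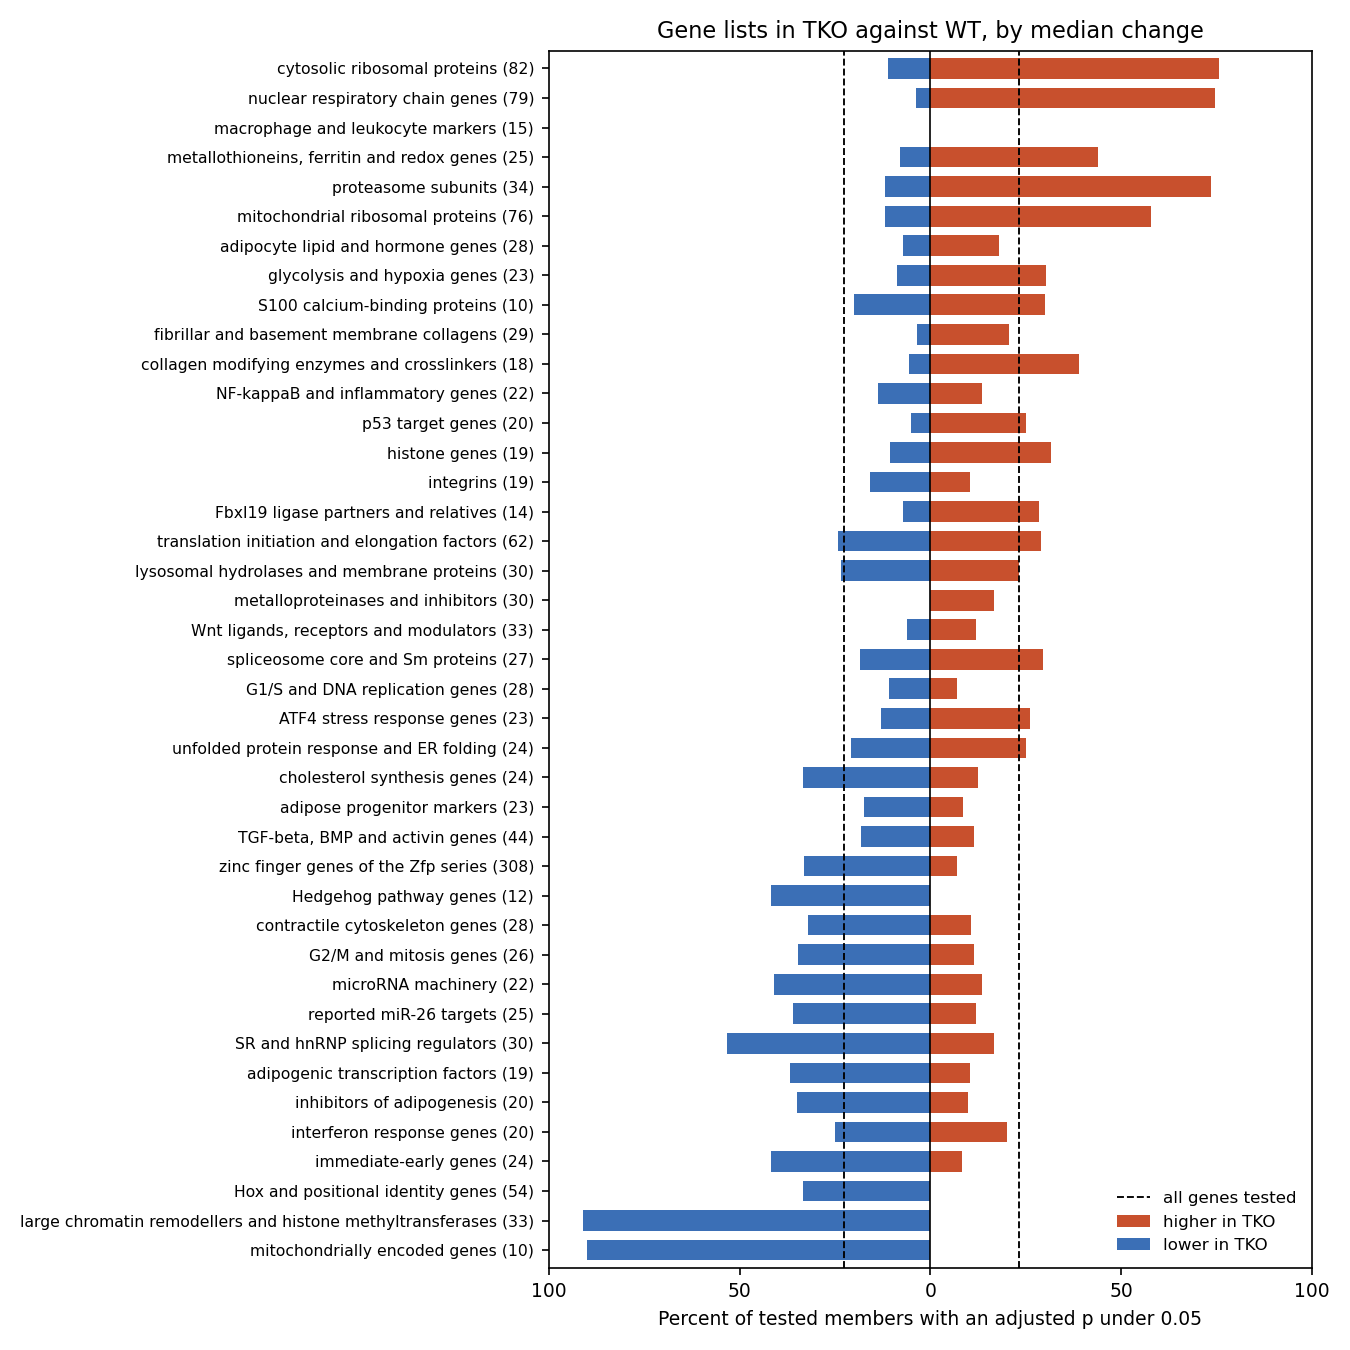
Percent of tested members of each gene list that were higher (red, to the right) or lower (blue, to the left) in TKO at an adjusted p of 0.05, with the number tested in brackets and lists ordered by median change. Dashed lines give the shares over all genes, 23.2% higher and 22.7% lower; ribosomal, respiratory chain and proteasome lists pass the right line by far, and chromatin and mitochondrially encoded lists the left.

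Transcription factors of adipogenesis were mixed. Of 19 tested, 2 were higher (10.5%) and 7 lower (36.8%), against 23.2% and 22.7% of all genes. The lower count was 4 without WT 1 or WT 3 and under library-size scaling. Cebpa, a master activator of the adipocyte programme, measured 13.2, 10.9 and 11.8 in the WT libraries and 61.2, 36 and 26.5 in TKO and rose by 1.63 ± 0.28 (adjusted p = 0.0042). All TKO libraries were above WT, with TKO 1 highest. Pparg, its partner, measured 17.1, 14 and 14.8 in the WT libraries and 16.8, 16.2 and 10.6 in TKO and did not pass (adjusted p = 0.71). Ebf1 and Ebf3, early factors of the lineage, fell by 1.21 ± 0.22 and 1.05 ± 0.06, and Srebf1, which drives fatty acid synthesis genes, rose by 0.71 ± 0.14. Ebf1 measured 206, 184 and 153 in the WT libraries and 106, 57.5 and 75.3 in TKO. Inhibitors of adipogenesis were lower in 7 of 20 and higher in 2; the lower count was 3 without WT 1 or WT 2, 4 without TKO 3 and 3 under library-size scaling. Zfp521, which antagonises Ebf1, fell by 0.80, Nr2f2, a nuclear receptor, by 0.75 and Tcf7l2, a nuclear effector of Wnt, by 0.81. Ebf1 was below the WT range in every TKO library.

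Id proteins, which block basic helix-loop-helix factors and answer to BMP signals, diverged. Id3 measured 53.8, 59.6 and 63.8 in the WT libraries and 235, 152 and 168 in TKO and rose by 1.61 ± 0.16. Id1 measured 17.2, 19.1 and 17.2 in the WT libraries and 53.2, 34.9 and 29.3 in TKO and rose by 1.05 ± 0.21. Id2 measured 63.7, 53.7 and 46.3 in the WT libraries and 47, 29.6 and 34.9 in TKO and was called lower only narrowly (adjusted p = 0.048, or 0.057 by edgeR and 0.1 to 0.15 without WT 1, WT 2, TKO 2 or TKO 3, and lost with no filter or under library-size scaling). For Id3 and Id1 every TKO library was above every WT library, while for Id2 TKO 1 was just above WT 3. In the whole TGF-beta, BMP and activin list, which holds Id genes too, 5 of 44 were higher and 8 lower, or 3 lower without WT 2, when 3 were higher, and 4 lower without WT 1. The receptor gene Bmpr2 fell by 0.71 (0.31 with the trend removed), while Tgfbi, a matrix protein induced by TGF-beta, rose by 0.85 (adjusted p = 0.014, or 0.056 without WT 2). In the Wnt list 4 of 33 were higher and 2 lower, and the higher count ran from 0, without WT 2 or WT 3, to 7 by edgeR and DESeq2; 5 were lower without TKO 1. The effector Tcf7l1 fell furthest, with 43.8, 49 and 45.9 in the WT libraries and 20.7, 17.6 and 16.3 in TKO, a change of -1.30 ± 0.10. In the Hedgehog list 5 of 12 were lower, 2 without WT 2 or WT 3 and 3 without WT 1, and 0 were higher by limma (0 also unadjusted, by edgeR and by DESeq2; 1 without TKO 3). Disp1, which releases the ligand, fell by 0.76, and Gli3, a repressing effector, by 0.57 (0.37 with the trend removed).

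Positional identity genes, the Hox, Tbx, Pbx and Meis families that retain a fibroblast's place in the body, were lower in 18 of 54, and 0 were higher by limma (0 also unadjusted, by edgeR and by DESeq2; 1 without TKO 1 and under library-size scaling). Trend removed, 24 were lower, and 14 to 21 in fits without 1 library. Tbx5, a forelimb and upper-body factor, measured 15.2, 12.2 and 12.6 in the WT libraries and 7.83, 4.54 and 4.57 in TKO and fell by 1.14 ± 0.20. Shox2, a limb homeobox gene, measured 105, 92.4 and 92.1 in the WT libraries and 63.2, 38.6 and 43.2 in TKO and fell by 1.01 ± 0.18. Hoxc6 measured 54.8, 59.7 and 47.1 in the WT libraries and 36, 26.9 and 33 in TKO and fell by 0.74 ± 0.13. Their TKO and WT ranges did not overlap. Meis2 fell by 0.93, Hoxc4 by 0.75 and Hoxa7 by 0.65, while Hoxa5 measured 4.29, 5.28 and 5.59 in the WT libraries and 3.79, 6.25 and 5.43 in TKO and did not pass (adjusted p = 0.97). The labels do not name the fat depot, so whether both groups were taken from the same depot was not tested.

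Immediate-early genes, which answer growth factor and stress signals within minutes, were lower in 10 of 24 and higher in 2, and with the trend removed in 13 and 1. Myc measured 86.1, 102 and 104 in the WT libraries and 33, 44.7 and 40.3 in TKO and fell by 1.30 ± 0.13. Zfp36, which destabilises cytokine messengers, measured 57.1, 63.6 and 61.1 in the WT libraries and 24, 30.9 and 21.9 in TKO and fell by 1.23 ± 0.13. Fosl1 measured 24.7, 31.5 and 28.6 in the WT libraries and 16.2, 13.5 and 12.5 in TKO and fell by 0.96 ± 0.13. For each gene the highest TKO library was below the lowest WT library. Klf6 fell by 0.92 and the phosphatase gene Dusp1 by 0.66. These genes also respond to the handling of cells, and the part of harvest in the result was not tested.

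Calls of adipocyte genes depended on TKO 3 and on the method. In the full comparison 5 of 28 were higher and 2 lower, while 11 were higher by DESeq2, 10 under library-size scaling and 8 with the trend removed. Without TKO 3, 16 were higher and 2 lower, and without WT 1 or WT 2 only 3 were higher (1 lower without WT 1). The shares for all genes without TKO 3 were 22.3% higher and 22.1% lower. Adipoq, the hormone adiponectin, measured 1.18, 1.85 and 2.8 in the WT libraries and 16, 16.3 and 0.787 in TKO. Plin1, the lipid droplet coat protein, measured 1.29, 1.78 and 2.4 in the WT libraries and 14.5, 13.9 and 0.986 in TKO. Fabp4, the fatty acid carrier of adipocytes, measured 25.5, 26 and 25.6 in the WT libraries and 83.5, 80.7 and 27.1 in TKO. TKO 1 and TKO 2 were high for all 3 genes, and TKO 3 was within or next to the WT range. Across 6 libraries Adipoq (adjusted p = 0.2), Plin1 (adjusted p = 0.16) and Fabp4 (adjusted p = 0.063) did not pass by limma. DESeq2 called all 3 (0.045, 0.031 and 0.00084), and edgeR called Fabp4 (0.033). Without TKO 3, Adipoq changed by 2.58 (limma adjusted p = 0.0018), Plin1 by 2.45 (adjusted p = 0.0015) and Fabp4 by 1.64 (adjusted p = 0.0011). Because TKO 3 was the TKO library near WT, low p-values without it follow from that choice. Without TKO 1 or TKO 2 no gene of these passed: Adipoq 0.42 and 0.42, Plin1 0.36 and 0.35, Fabp4 0.15 and 0.14. Enzymes of triglyceride synthesis differed in how far their calls depended on TKO 3. Agpat2, Gpam and Gpd1 did not pass across 6 libraries (adjusted p of 0.055, 0.063 and 0.36) and passed without TKO 3 (0.0036, 0.026 and 0.011). DESeq2 and library-size scaling also called Agpat2 and Gpam, and edgeR Agpat2. Dgat1 measured 9.53, 10.3 and 10 in the WT libraries and 20.9, 22.8 and 17.8 in TKO and rose by 0.96 ± 0.10, and Dgat2 measured 3.28, 3.38 and 3.89 in the WT libraries and 11.3, 13 and 5.32 in TKO and rose by 1.19 ± 0.29, although its adjusted p of 0.015 became 0.056 without WT 1 and 0.055 without WT 2 and its change 0.76 with a pseudocount of 5. Even TKO 3 was above every WT library for both. The summed signal of the list was 4848 to 5635 units in TKO and 5208 to 5770 in WT.

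Of 23 progenitor surface genes, 2 were higher (8.7%) and 4 lower (17.4%), both below the shares of all genes. The lower count was 1 without WT 1 or WT 2, 2 without TKO 3 and 7 without TKO 1 or TKO 2, and the higher count was 4 without TKO 3. Thy1, a marker of fibroblastic progenitors, measured 788, 789 and 704 in the WT libraries and 525, 392 and 358 in TKO and fell by 0.86 ± 0.15. Icam1, a mark of committed preadipocytes, measured 30.3, 36.7 and 38.6 in the WT libraries and 70.2, 98.4 and 65.7 in TKO and rose by 1.11 ± 0.17. Both were separated between the groups. Ly6a, the Sca-1 antigen, measured 142, 108 and 112 in the WT libraries and 347, 202 and 135 in TKO and did not pass (adjusted p = 0.081, or 0.017 without TKO 3, 0.0068 by DESeq2 and 0.044 under library-size scaling).

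Matrix genes were higher about as often as all genes (23.2%) or less, apart from collagen-modifying enzymes. Of 29 collagen genes, 6 were higher (20.7%, or 3 without WT 2) and 1 lower. Col23a1, a transmembrane collagen, measured 8.31, 6.28 and 7.43 in the WT libraries and 15.5, 24.8 and 18.2 in TKO and rose by 1.28 ± 0.18. Col16a1 rose by 0.70 and Col24a1, a fibrillar collagen, fell by 0.77. Of 18 enzymes that modify or crosslink collagen, 7 were higher (38.9%, or 4 without WT 2) and 1 lower (0 without WT 1 or WT 2). The higher ones include the prolyl hydroxylase relative P3h3 (0.75) and the lysyl hydroxylase Plod3 (0.63). Metalloproteinases and their inhibitors were higher in 5 of 30 (16.7%), and 0 were lower by limma and edgeR (2 unadjusted and by DESeq2, and 1 in fits without TKO 1, TKO 2 or TKO 3). Contractile genes were lower in 9 of 28 (5 without WT 2) and higher in 3. Myh10, a nonmuscle myosin, fell by 0.88, Zyx, a focal adhesion protein, by 0.75 and Smtn, smoothelin, by 0.69, while Tagln rose by 0.82. Integrin genes were higher in 2 of 19 and lower in 3; the higher count was 1 without WT 1, WT 2, WT 3 or TKO 2 and with the trend removed, and 5 were higher and 5 lower without TKO 1. Itga4 measured 22.3, 20.2 and 30.1 in the WT libraries and 10.1, 10.4 and 7.21 in TKO and fell by 1.30 ± 0.19.

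Growth and stress lists did not share a direction. Among G2/M genes, 3 of 26 were higher (5 without TKO 1) and 9 lower; the lower count was 2 without WT 1 or WT 2 and 4 under library-size scaling. Mki67, the proliferation antigen, measured 439.5, 439.9 and 382 in the WT libraries and 168, 188 and 247 in TKO and fell by 1.08 ± 0.15, while Cdc20, an activator of the anaphase-promoting complex, measured 19, 21.5 and 21.7 in the WT libraries and 36.2, 44.3 and 47 in TKO and rose by 0.99 ± 0.11. Both are highest in mitosis, yet they lay on opposite sides with no overlap. Cdkn1b, the p27 inhibitor of cyclin-dependent kinases, fell by 0.67. Glycolytic and hypoxia genes were higher in 7 of 23 (4 without WT 1 or WT 2) and lower in 2, led by the glycolytic mutase gene Pgam1 (1.57, shared sequence 0.415) and the lactate dehydrogenase gene Ldha (1.06 ± 0.14). Of 23 targets of ATF4, 6 were higher and 3 lower, or 7 lower with the trend removed: the mTOR inhibitor gene Ddit4 rose by 1.47 and Nupr1 fell by 0.93. Of 24 unfolded protein response genes, 6 were higher (25.0%) and 5 lower (20.8%, or 1 to 3 genes without WT 1, WT 2, TKO 2 or TKO 3). These shares were near those of all genes. Under library-size scaling 11 were higher and 1 lower, and the chaperone gene Dnajb9 fell by 0.65 in the main fit. Of 20 p53 targets, 5 were higher and 1 lower, with 2 to 3 higher without WT 1, WT 2 or WT 3, 3 with the trend removed and 8 under library-size scaling; the lower count ran from 0 without WT 2 to 3 without TKO 2. Perp, a p53 target of cell junctions, rose by 1.38.

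Immune-response genes moved both ways. Of 20 interferon-response genes, 4 were higher (1 without WT 2 or WT 3, 2 without TKO 2) and 5 lower (8 without TKO 2), or 1 and 5 with the trend removed. B2m, the light chain of class I histocompatibility molecules, measured 1153, 1062 and 1146 in the WT libraries and 454, 665 and 355 in TKO and fell by 1.23 ± 0.21. Ifitm2, a membrane protein that restricts viruses, fell by 1.26 (shared sequence 0.485), while its neighbour Ifitm3 rose by 0.62, a call that ended with the trend removed (0.29, adjusted p = 0.1). In the NF-kappaB list 3 of 22 were higher (6 by DESeq2) and 3 lower, 13.6% each and so below the shares of all genes. Rela fell by 0.57 ± 0.09 and Relb rose by 0.78 ± 0.17, or by 0.48 with the trend removed.

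The TKO libraries were further from each other than the WT libraries. The median SD of log2(signal + 1) over genes was 0.138 in TKO and 0.086 in WT, and TKO had the larger SD for 9324 genes (73.7%). Of the 12 tested genes with the largest TKO spread, 10 were highest in TKO 2 and 2 in TKO 3. They include keratin genes of simple epithelia: Krt8 measured 10.5, 10.7 and 2.27 in the WT libraries and 0.051, 5.66 and 31 in TKO and Krt18 8.77, 9.41 and 2.69 in the WT libraries and 0.203, 8.55 and 23.4 in TKO. TKO 1 had the least of either and TKO 3 the most. Saa3, an acute-phase protein, measured 4.78, 4.07 and 15.9 in the WT libraries and 6.56, 155 and 11.6 in TKO, and Lum, the matrix proteoglycan lumican, 67.1, 81 and 199 in the WT libraries and 56.8, 419 and 116 in TKO. TKO 2 was the highest library for both. Fast muscle genes such as Mylpf (10.2, 14.8 and 5.5 in the WT libraries and 7.39, 26.8 and 2.57 in TKO) also peaked there.

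Markers of other cell types differed between libraries of the same genotype. By limma, 0 of 15 macrophage genes passed in either direction, and 0 of 7 Schwann cell, 6 epithelial, 6 skeletal muscle and 5 mesothelial genes. At an unadjusted p under 0.05 and by DESeq2, 1 Schwann cell gene was lower, and by DESeq2 1 macrophage gene was higher; edgeR called 0. In fits without 1 library, 1 macrophage and 1 skeletal muscle gene were lower without TKO 2, and 1 mesothelial gene was higher and 1 Schwann cell gene lower without TKO 1. Lyz2, the macrophage lysozyme, measured 24.1, 18 and 31 in the WT libraries and 34.1, 181 and 30.5 in TKO, and Csf1r 7.4, 6.27 and 8.88 in the WT libraries and 9.96, 26.7 and 7.03 in TKO. TKO 2 was highest for both, while TKO 1 and TKO 3 lay near WT. Pericyte and smooth muscle markers summed to 3274 to 3768 units in WT and 2208 to 3190 in TKO, and 1 of 9 passed, upward (3 by edgeR and DESeq2, 4 without TKO 2 and 0 without WT 1, WT 2 or TKO 3). In the lower direction, 1 was called by DESeq2, 2 without TKO 1 and 1 with the trend removed, when 0 were higher. Endothelial markers summed to 122.2 to 151.8 units in WT and 89.8 to 168.5 in TKO, with 1 of 9 higher and 1 lower, which became 0 to 3 and 1 to 2 in fits without 1 library. Without TKO 2, 62 ribosomal and 57 respiratory chain genes were higher, and 26 chromatin and 9 mitochondrially encoded genes lower.

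**Figure D5:**
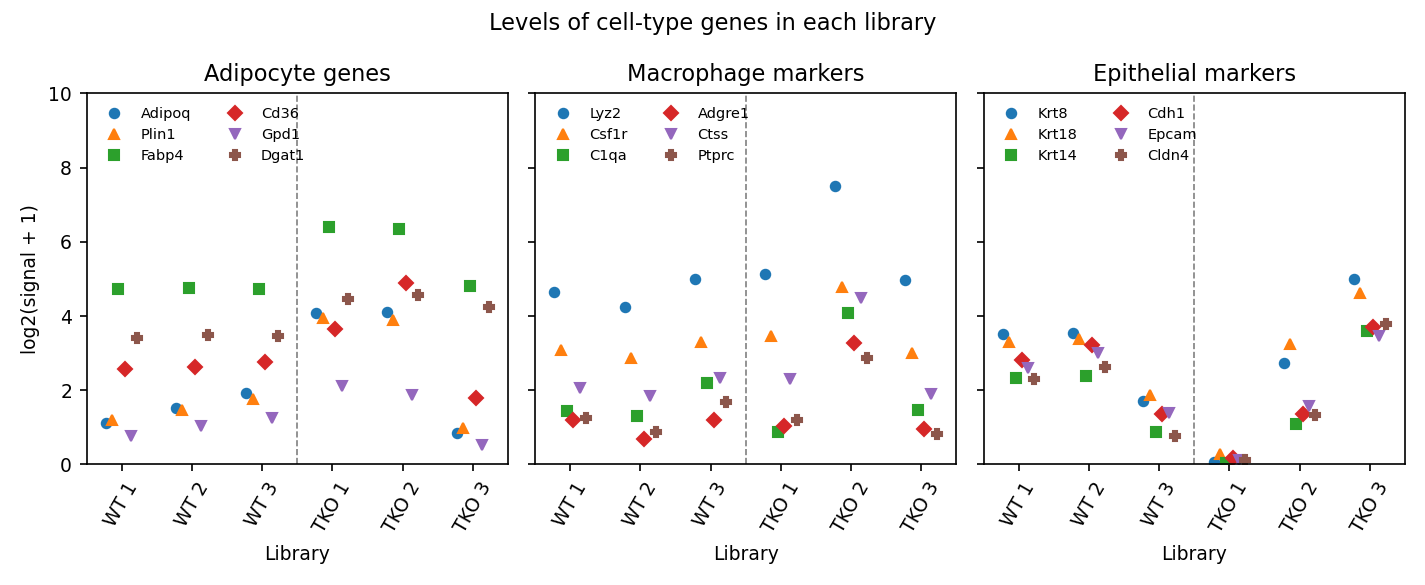
Levels of 6 adipocyte, 6 macrophage and 6 epithelial marker genes as log2(signal + 1) in each library, with a dashed line between WT and TKO. Adipocyte genes other than Dgat1 are high in TKO 1 and TKO 2 and near WT in TKO 3, macrophage genes are highest in TKO 2, and epithelial genes are near 0 in TKO 1 and highest in TKO 3.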

How the data were processed

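RNA of the WT and TKO cells was isolated with miRNeasy kits, made into TruSeq Stranded mRNA libraries and sequenced as single reads on a NextSeq instrument, per the labels' protocols. The submitters' processing notes name TopHat2 2.0.12, featureCounts 1.4.6, edgeR 3.8.6, StringTie 1.2.2 and the GRCm38 (mm10) build; the strand setting of the counting was not given in the sources used here. The deposited values are a signal per gene, made by the authors as reads divided by a scaling constant per library: on that scale at least 99.0% of values in each library came out as whole reads within 0.1 reads. The same tables hold the authors' log2 fold changes and mean levels, the score of a likelihood ratio test and its p-values with false discovery rates (FDR), per the file headers. The authors' deposited table gives 4775 genes an FDR under 0.05, 2625 higher and 2150 lower in TKO. These columns entered no test here.

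Since the columns hold scaled values and not counts, the main test was limma 3.58.1 (R 4.3.3) with a trend on log2(signal + 1), for genes whose signal was 1 or more in 3 or more of the 6 libraries, with Benjamini-Hochberg adjustment over all genes tested and a threshold of 0.05. The recovered reads went into edgeR 4.0.16 and DESeq2 1.42.0 as alternatives. Other alternatives were pseudocounts of 0.1 and 5, other filters, library-size scaling, median centring, removal of a spline in transcript length and GC content from each library, a replicate block, and leaving out each library. The scripts (Python 3.11.15) were tested on simulated data. The edgeR and DESeq2 fits of Dox against CTL were added after seeing the data.

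Replicate numbers did not pair TKO with WT: deviations of same-numbered libraries correlated at 0.45, -0.13 and -0.29. They paired Dox with CTL (0.86, 0.58 and 0.74), so the paired fit is given there. The headers of the Dox 2 and Dox 3 columns end in the same sample suffix; the columns were matched to samples by their replicate number.

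Gene models, 3′ UTRs (1 per gene) and lengths came from the GENCODE annotation of GRCm38. Seed matches were searched on the transcript strand: TACTTGAA for an 8mer, TACTTGA or ACTTGAA for the 7mers and ACTTGA for a 6mer, each gene counted in its strongest class. Shared sequence is the share of a transcript's stretches of 50 bases that also occur in another annotated gene. Genes were named by rule, beginning with Fbxl19 and the host genes. The 8mer genes were the 12 largest rises and 6 largest falls among those called, with a mean signal of at least 5. The largest changes were the 15 of each direction among genes called with and without the trend, with a mean of at least 10. Both of these sets were limited to genes whose groups did not overlap. Leading members of the lists were named too. A few members of the lists that the rule did not reach, and genes that did not pass, were named after their values were seen. The genes and lists were chosen with earlier results of these data known.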

Additional observations from a re-analysis of the deposited data

How the results depend on the processing

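The count of genes called in TKO against WT stayed within 1.5 times of 5796: 5769 by edgeR, 6354 by DESeq2, 5810 and 5785 with pseudocounts of 0.1 and 5, 6197 with no filter, 5273 with a mean signal of at least 5, 5736 under library-size scaling, 5820 with median centring, 5791 with the trend removed and 3938 to 5723 without 1 library. With the replicate number as a block, 5101 genes were called in TKO against WT; these numbers do not pair the libraries. In Dox against CTL, where they do, the block raised the count from 0 to 265, and DESeq2 without it called 99. The 8mer minus no-site difference of medians (-0.135) turned to 0.082 with the trend removed and ran from -0.181 to -0.071 without 1 library, nearest to 0 without TKO 2; the other alternatives gave -0.15 to -0.106. Of 174 genes named with a change or an adjusted p, 154 kept their direction and their side of the threshold in every alternative. Directions turned for 3 genes, none of them called in the comparison of all 6 libraries. mt-Co3 was at 0.04 and Pparg at 0.03 under library-size scaling, and without 1 library they ran from -0.15 to 0.03 and from -0.2 to 0.11. Hoxa5 was at -0.11 with the trend removed and ran from -0.12 to 0.18. The cause was not tested. With 3 libraries a group, no small difference can be told from the spread, and the TKO spread is the larger. Reads of near-identical copies cannot be assigned to 1 gene from these tables. A signal of 1 unit is 55 to 90 reads in the 6 libraries, which limits how small a change of a low gene can be seen.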

Other observations

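Some rows carry microRNA names. Reads from polyadenylated RNA over such rows are not mature microRNAs. Mir703 measured 0.229, 0.117 and 0.272 units in the WT libraries and 6.98, 8.62 and 7.29 in TKO and rose by 2.84 (adjusted p = 0.00018 by limma with no filter). Mir6236 measured 0.282, 0.317 and 0.981 against 8.46, 3.9 and 7.15, a change of 2.27 (adjusted p = 0.0021). The TKO libraries were above the WT libraries for both, and the size of the change in these low rows depends on the scale: by edgeR it was 5.22 and 3.64, and with a pseudocount of 5 it was 1.28 and 1.04. The host transcripts Mir22hg and Mir155hg moved apart, at 0.92 and -1.19 (adjusted p of 0.00034 and 0.0022; -0.72 for Mir155hg with a pseudocount of 5).

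Genes within 1 Mb on each side of the deleted loci were counted. Near Mir26a-1, 9 of 19 tested genes were higher (47.4%) and 5 lower (26.3%). Near Mir26b, 7 of 30 were higher and 4 lower, and near Mir26a-2, 8 of 31 were higher and 5 lower, against 23.2% and 22.7% over all genes. No test of these counts was made.

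Gene classes differed in their shares of calls. Of 24 unprocessed pseudogenes, 13 were lower and 3 higher (median -0.52), while of 126 processed pseudogenes, 47 were higher and 41 lower. Of 105 genes annotated as to be experimentally checked (TEC), 21 were lower and 3 higher (median -0.21).

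S100 calcium-binding proteins, small proteins that bind targets when calcium rises, went both ways. Of 10 tested, 3 were higher and 2 lower (1 without WT 2). S100a6 rose by 2.18, while S100a11 fell by 0.70 (shared sequence 0.411), with 446, 534 and 417 in the WT libraries and 292, 285 and 275 in TKO, without overlap. Lysosomal genes were higher in 7 of 30 and lower in 7, 23.3% each and so about the shares of all genes, but 1 to 3 were higher without WT 1, WT 2 or WT 3. Cholesterol synthesis genes were lower in 8 of 24 and higher in 3; 4 or 5 were lower without WT 1, WT 2, WT 3 or TKO 2. Of 28 genes of G1/S and DNA replication, 2 were higher and 3 lower; the higher count was 0 without WT 2, 6 without TKO 1 and 7 under library-size scaling, and 5 were lower without TKO 1 or TKO 3.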
